A study of Rattus norvegicus with 72 samples.

Results

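Gene expression in rat dorsal root ganglia was compared 8 h after a sciatic nerve lesion labelled proximal and 8 h after sham surgery. The comparison rested on 6 of the 72 arrays of the series, 3 proximal (a, b and c) and 3 sham (a, b and c), chosen by their titles. All 6 arrays carried RNA of the L4 and L5 ganglia of Wistar rats of 8 to 12 weeks, with no transgene or drug named in the labels. The proximal rats had a crush of the sciatic nerve, and sham arrays carried the label sham with no further description of the surgery. Other arrays held the same lesions at 1, 3, 12, 16, 18, 24 and 28 h, and a lesion labelled distal. The labels do not say how far from the ganglion the lesion lay, whether ganglia were pooled, or that each array holds another animal. P-values therefore reflect only how far arrays of a group differed.

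A dorsal root ganglion holds the cell bodies of sensory neurons, each wrapped by satellite glial cells, together with Schwann cells, macrophages, fibroblasts and vessels. After a crush of the nerve, calcium waves and motor-driven cargo carry news of the injury along the axon to the nucleus, where transcription factors such as ATF3, JUN, SOX11 and STAT3 are known to switch on a growth programme. Because the arrays measured whole ganglia, fewer cells of a type and less RNA per cell cannot be told apart.

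Values are log2 intensities, on which a difference of 1 is a 2-fold change, and each of 11448 tested genes was read from 1 probe set. Genes counted as called had an adjusted p under 0.05 (limma, Benjamini-Hochberg). At 8 h 221 genes were called, 1.93% of the genes tested. Of these, 211 were higher (1.84% of the genes tested) and 10 were lower (0.0874%) after the proximal lesion. The proximal arrays lay above all sham arrays in 205 of the 211 genes called higher and below them in 10 of the 10 called lower. The counts were the same without sham c, but leaving out an array cannot undo a separation. These genes were called from the same arrays, which favours separation, so nothing is read from these counts. Over all genes tested, 20% lay apart upwards and 4.94% downwards, or 28.4% and 6.71% without sham c. The rises were modest, with a median log2 difference of 0.55 and a range of 0.23 to 1.28, and the falls ran from -1.82 to -0.54 with a median of -0.88. At least 2-fold changes were called in 6 genes that rose (Pdlim4, Ccl2, Fzd2, Sbno2, Prodh and Pfkl) and in 4 that fell (Fabp7, B3gnt5, Itgb3 and Col14a1).

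The count depended on single arrays and on scaling. Without sham c 4 genes were called, without sham a 15, without proximal a 16, without proximal b 70, without proximal c 135 and without sham b 383. Prodh, Atp6v0c and Adamts9 were the 3 genes called whichever of the 6 arrays was left out. The 6 arrays differed in spread: their interquartile range was 3.09, 3.14 and 2.97 log2 in proximal a, b and c, against 2.76, 2.99 and 3.00 in sham a, b and c. After another quantile normalization of all arrays, 223 genes were called (1.95% of those tested), 155 higher (1.35%) and 68 lower (0.594%), among them 86 of the 211 and 10 of the 10. The median log2 difference of all genes was 0.08 with the deposited values and 0.01 after that step. Bright genes gave more of the calls in the deposited values: 103 of the 211 rises lay among the 2862 brightest genes and 20 among the 2862 dimmest. The 3' minus 5' signal of the actin control probe sets was 0.84, 0.80 and 0.87 log2 in proximal arrays. In sham arrays it was 0.97, 1.01 and 1.00. The GAPDH controls went the other way, at 0.29, 0.18 and 0.20 in proximal arrays and 0.08, 0.14 and 0.16 in sham arrays. The hexokinase controls had 2.26, 1.93 and 2.09 against 2.04, 1.67 and 1.64, with overlap. The part of these differences in the calls was not tested.

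**Figure D1:**
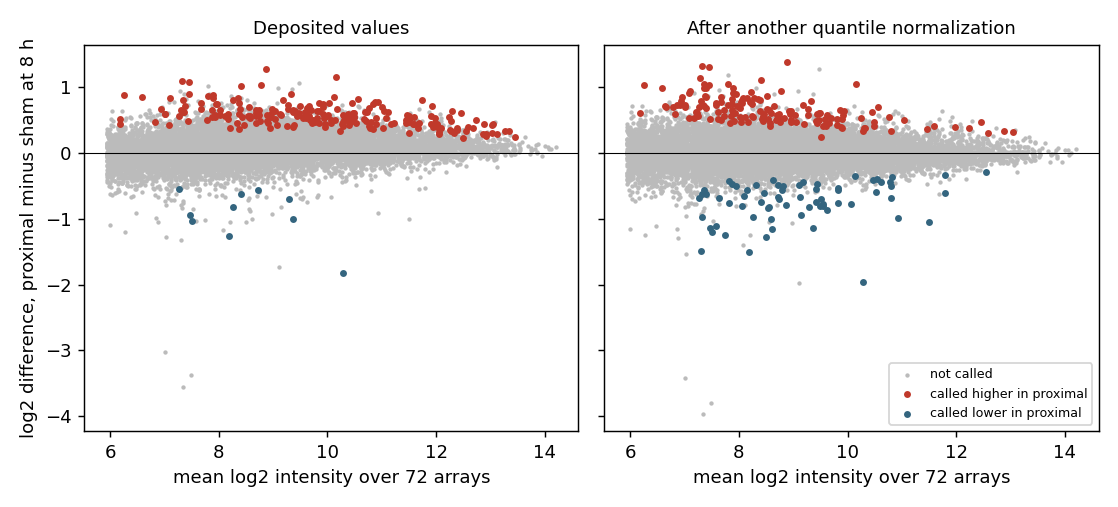
Log2 difference (proximal minus sham at 8 h, 3 arrays each) of 11448 genes against their mean log2 intensity over 72 arrays, as deposited (left) and after another quantile normalization (right); coloured points were called by limma. Called genes numbered 211 higher and 10 lower on the left, and 155 higher and 68 lower on the right.

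The largest fall was that of Fabp7, a fatty acid binding protein of satellite glia. Its log2 intensity was 8.40, 8.19 and 7.65 in proximal a, b and c, and 9.84, 9.73 and 10.15 in sham a, b and c. Every proximal array was more than 1 log2 unit below the lowest sham array. That was a 3.53-fold fall (log2 -1.82, SE 0.33, limma adjusted p = 0.00368), and without sham c the adjusted p was 0.0506 (log2 -1.70).

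Adamts9, a secreted protease that cleaves matrix proteoglycans, had 7.20, 7.06 and 7.13 log2 in proximal arrays and 8.09, 8.05 and 8.07 in sham arrays. The arrays of a group lay close together (SD 0.07 in proximal and 0.02 in sham, n = 3 each), and the groups were far apart. The log2 difference was -0.94 (SE 0.15, adjusted p = 0.000545), with an adjusted p of 0.0108 without sham c. A dimmer probe set of Adamts9 showed -0.17 with overlapping arrays. Adam17, the membrane protease that sheds TNF and its receptors, had 8.75, 8.42 and 8.30 in proximal arrays, against 9.15, 9.14 and 9.27 in sham arrays (log2 -0.70, adjusted p = 0.00977; 0.0785 without sham c). All proximal values were below all sham values, and proximal a was nearest to the sham range.

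B3gnt5, a glycosyltransferase that starts a class of glycosphingolipids, had 6.67, 6.89 and 6.20 log2 in proximal arrays and 7.54, 7.92 and 8.07 in sham arrays (log2 -1.26, SE 0.30, adjusted p = 0.0169). Itgb3, the integrin beta 3 chain, had 6.18, 6.28 and 6.06 against 6.95, 7.28 and 7.39 (log2 -1.03, adjusted p = 0.0226). Col14a1, a collagen that sits on the surface of fibrils, had 8.74, 8.57 and 8.47 against 9.60, 9.56 and 9.64 (log2 -1.01, adjusted p = 0.00972). In these 3 genes the arrays did not overlap. A second Col14a1 probe set of similar brightness showed -0.05, so the probe sets of this gene disagreed. The other 4 falls were Cbx1, a heterochromatin protein (log2 -0.82), Depp1, a FOXO-induced regulator of autophagy (-0.62), Gask1b, a Golgi-associated protein (-0.56), and Gsap, an activator of gamma-secretase (-0.54), each with adjusted p between 0.0225 and 0.0409. Without sham c, the adjusted p of these 4 and of B3gnt5, Itgb3 and Col14a1 lay between 0.0597 and 0.288. Gask1b fell at its other probe set as well (log2 -0.63), and the other Cbx1 probe sets showed 0.04 and -0.05.

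Among the rises, Pdlim4, a PDZ and LIM protein of actin fibres, was the largest. It had 8.79, 8.35 and 8.53 log2 in proximal arrays and 7.01, 7.92 and 6.91 in sham arrays. Sham b was about 1 unit above the other sham arrays and still below every proximal array. The log2 difference was 1.28 (SE 0.28, 2.43-fold, adjusted p = 0.00972; 0.115 without sham c).

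Ccl2, the chemokine that draws monocytes, had 10.031, 10.001 and 9.630 log2 in proximal arrays and 8.37, 8.72 and 9.11 in sham arrays. The groups were apart, with sham c nearest to the proximal arrays. Its rise was 2.23-fold (log2 1.16, SE 0.28, adjusted p = 0.0206). Without sham c the difference was larger, at log2 1.34, with an adjusted p of 0.0523. Sbno2, a transcriptional coregulator related to strawberry notch of the fly, had 7.44, 7.35 and 7.27 against 5.98, 6.61 and 6.22 (log2 1.08, SE 0.21, adjusted p = 0.00487; 0.0506 without sham c). Its proximal arrays agreed within 0.08 (SD, n = 3) and stood above all sham arrays, which spread more widely (SD 0.32, n = 3).

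Prodh, the mitochondrial enzyme that begins proline breakdown, had 9.59, 9.44 and 9.29 log2 in proximal arrays and 8.43, 8.31 and 8.48 in sham arrays. The gap between the groups was wider than the range within either, and leaving out sham c left the adjusted p at 0.0104, against 0.000545 with all arrays (log2 1.03, SE 0.17). A second Prodh probe set, dimmer and below the level required for testing, showed -0.11 with overlap. Other rises among the 12 largest were those of Pfkl, the liver-type subunit of phosphofructokinase (1.02), Pnpla7, a lysophospholipase (0.91), and Pnpla2, the lipase that opens stored triglyceride (0.90). Their adjusted p lay between 0.00972 and 0.0156, and between 0.0566 and 0.134 without sham c.

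A receptor and a ligand of Wnt signalling rose, Fzd2 and Wnt6. Fzd2 had 7.61, 7.38 and 7.56 log2 in proximal arrays, against 6.13, 6.35 and 6.80 in sham arrays (log2 1.09, adjusted p = 0.0186). Without sham c its log2 difference was 1.28 (adjusted p = 0.0506). Wnt6 had 7.61, 7.40 and 7.38 against 6.61, 6.77 and 6.42 (log2 0.87, adjusted p = 0.0244), and without sham c its log2 difference was 0.78 (adjusted p = 0.178). Neither gene overlapped between groups, and a dim second Wnt6 probe set showed -0.02. Agt, the precursor of angiotensin, rose at least 1.70-fold, a bound, since the sham mean of 5.81 was under the level of 5.94 required for testing (adjusted p = 0.0354; 0.21 without sham c). Prr15 (0.88) and Atp6v0a1, a subunit of the vacuolar proton pump (0.86), completed the 12 largest rises. Their arrays did not overlap between groups, and without sham c their adjusted p was 0.144 and 0.0579.

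**Figure D2:**
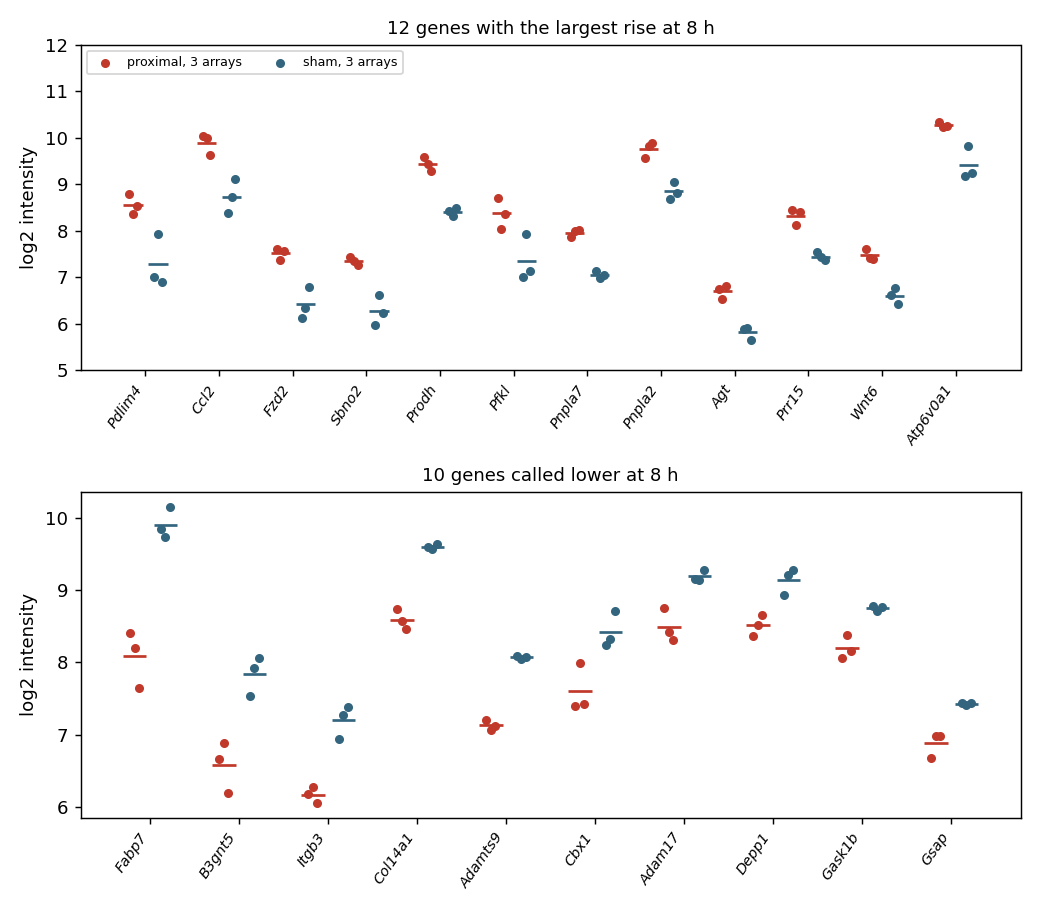
Log2 intensity of the 12 genes with the largest called rise (top) and the 10 genes called lower (bottom) in each array at 8 h, proximal left of sham; points are arrays and bars are means of 3. No proximal array reaches into the sham range of the same gene in either row, and Fabp7 shows the widest gap, with means of 8.08 in proximal and 9.90 in sham.

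The classical injury genes of the neuron were mostly not called at 8 h. Atf3, a stress-induced factor of axotomised neurons, had 7.79, 7.47 and 7.26 log2 in proximal arrays and 6.14, 6.56 and 6.62 in sham arrays. Its groups did not overlap, yet the adjusted p was 0.345 (log2 1.06, SE 0.51), in a fit whose spread includes Atf3's variable levels in the other 22 groups. In a fit of the 6 arrays at 8 h alone, which has 4 residual degrees of freedom, the adjusted p of Atf3 was 0.000833. Fos, an immediate-early factor, had 6.91, 6.92 and 6.98 against 5.70, 6.38 and 6.56 (log2 0.72, adjusted p = 0.587; 0.0221 with the 6 arrays alone). Jun had 9.99, 10.04 and 9.89 against 9.35, 9.72 and 9.79, with no overlap and an adjusted p of 0.606 (log2 0.36). Other Jun probe sets showed 0.47 with arrays apart and 0.28 with overlap.

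Stat3, the transcription factor downstream of gp130 cytokines, was called higher. It had 10.77, 10.89 and 10.73 log2 in proximal arrays and 10.36, 10.46 and 10.35 in sham arrays, a small and non-overlapping difference of 0.41 (SE 0.11, adjusted p = 0.0265). Without sham c the adjusted p was 0.144, and after the other quantile normalization the difference was 0.28 with an adjusted p of 0.234. A second Stat3 probe set of similar brightness showed 0.26 (SE 0.58) with overlapping arrays. Socs3, the feedback inhibitor induced by STAT3, had 6.91, 7.14 and 7.37 against 6.66, 6.42 and 6.64. Its proximal arrays were all higher (log2 0.57, adjusted p = 0.12), and after the other quantile normalization the difference of 0.70 passed the test (adjusted p = 0.044).

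The later markers of the injured ganglion gave small values. Gal, a neuropeptide of injured neurons, differed by -0.11, Npy, a neuropeptide of injured large neurons, by 0.15, Gap43, a growth cone protein, by 0.09, Sox11 by 0.22, Gadd45a, a cell stress gene, by 0.30 and Cebpd, an acute-phase factor, by -0.01, each with overlapping arrays and an adjusted p of 0.807 or more. The Sox11 means of both groups at 8 h were below 5.94 log2. Once sham c was left out, the proximal arrays of Sox11 and Gadd45a lay above the sham arrays. Gfap, a marker of activated satellite glia, had 8.25, 8.01 and 8.11 in proximal arrays and 7.70, 7.82 and 7.51 in sham arrays (log2 0.45, adjusted p = 0.41), without overlap. The nociceptor channel genes Scn10a and Trpv1 differed by 0.22 and 0.18 and Kpnb1, the importin beta gene, by -0.03, with adjusted p from 0.487 to 0.995. Il6, a gp130 cytokine, and Sprr1a, a protein of regrowing axons, were too dim to test. Il6 had 4.22, 4.01 and 4.40 in proximal arrays against 4.71, 4.65 and 4.36 in sham arrays, and Sprr1a 6.44, 5.76 and 6.16 against 6.33, 6.39 and 6.23. In both the groups overlapped.

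Gene lists of 20 pathways were set beside all genes tested, of which 1.84% were called higher and whose median log2 difference was 0.08. Each list had between 0 and 3 members called. Among 29 chemokines, cytokines and NF-kappaB targets, 2 rose and 0 fell (list median 0.06): Ccl2 and Tnfrsf1a, the TNF receptor that signals inflammation. Tnfrsf1a had 9.78, 9.61 and 9.49 log2 in proximal arrays and 8.45, 9.22 and 8.93 in sham arrays, with no overlap (log2 0.76, adjusted p = 0.00972). Without sham c its log2 difference was 0.79 (adjusted p = 0.0506). In the list of gp130 cytokines, JAK-STAT signalling and feedback, 1 of 32 rose, Stat3, and 26 of 32 differences were positive (median 0.16), as were 7571 of the 11448 over all genes tested. Of 31 immediate-early genes 0 were called (median 0.14), 10 had all proximal arrays above all sham arrays and 5 had them below. Over all genes tested, 20% lay above and 4.94% below. Gadd45b (0.87, adjusted p = 0.0545), Ier3 (0.71, 0.0867) and Gadd45g (0.99, 0.13), genes of early stress signalling, had the smallest p among the 31. After the other quantile normalization 2 members of this list were called higher and 1 lower.

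Among 31 transcription factors of the injured neuron 1 rose, Stat3 (median 0.10), and among 35 regeneration-associated effectors 1 rose, Tubb3 (median 0.09). After the other quantile normalization 0 members of either list were called higher, and 1 of the 31 transcription factors was called lower.

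Cytoskeletal genes gave the most calls of any pathway list. The called members lay among the 2862 brightest genes, of which 103 were called higher. Of 37 tubulins, microtubule regulators and growth cone proteins, 3 rose, 0 fell and the median was 0.12: the beta tubulins Tubb4b (log2 0.34, adjusted p = 0.00752), Tubb3, the neuronal form (0.44, 0.0393), and Tubb5 (0.29, 0.0453). Tubb4b had 13.28, 13.35 and 13.30 log2 in proximal arrays against 12.82, 13.13 and 12.96 in sham arrays, so the groups were near but apart. After the other quantile normalization these 3 differences were 0.23, 0.32 and 0.18 with adjusted p from 0.0711 to 0.25, and 0 members of the list rose while 2 fell. Without sham c the adjusted p was between 0.0506 and 0.196. Tubulin probes can share sequence between family members, so which member rose is uncertain. The lists of 32 motor protein genes and 32 importin and Ran genes, which serve transport along the axon and into the nucleus, had 0 called members, with medians of 0.08 and 0.11.

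The lists of unfolded protein and amino acid stress, oxidative phosphorylation and lipid synthesis had 1 called member each. Of all genes tested, 1.84% were called higher. Ppp1r15a, which restarts translation after stress (GADD34), was the called member of 32 unfolded protein and amino acid stress genes. It had 9.13, 9.04 and 9.08 log2 in proximal arrays and 8.36, 8.39 and 8.49 in sham arrays, well apart (log2 0.67, SE 0.18, adjusted p = 0.0364). Without sham c its log2 difference was 0.705 (adjusted p = 0.131). Uqcrc1, a core subunit of respiratory complex III, was called among 33 oxidative phosphorylation genes (log2 0.46, adjusted p = 0.00752; 0.0506 without sham c). Srebf1, a regulator of lipid synthesis, was called among 28 cholesterol and fatty acid genes (log2 0.55, adjusted p = 0.0382; 0.285 without sham c). Among 35 collagens, laminins and matrix proteins Sparc, a collagen-binding protein, rose (log2 0.50, adjusted p = 0.00977; 0.156 without sham c) while Col14a1 fell, and the median was 0.00. Uqcrc1, Srebf1 and Sparc were no longer called after the other quantile normalization (adjusted p from 0.0529 to 0.0785), whereas Ppp1r15a was (0.00348). Nociceptor genes (42 tested), heat shock proteins (21), ribosomal proteins (28), interferon response (33), cell division and p53 targets (32), clock genes (16), glucocorticoid-responsive genes (18) and MAP kinase genes (19) had 0 called members each, with medians between -0.06 and 0.21. After the other quantile normalization 1 heat shock, 1 cell division, 1 glucocorticoid-responsive and 1 MAP kinase gene were called lower. The clock list then had 1 member called higher, and the interferon list 1 higher and 1 lower. Over all genes, 1545 had an unadjusted p under 0.05 with the deposited values.

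**Figure D3:**
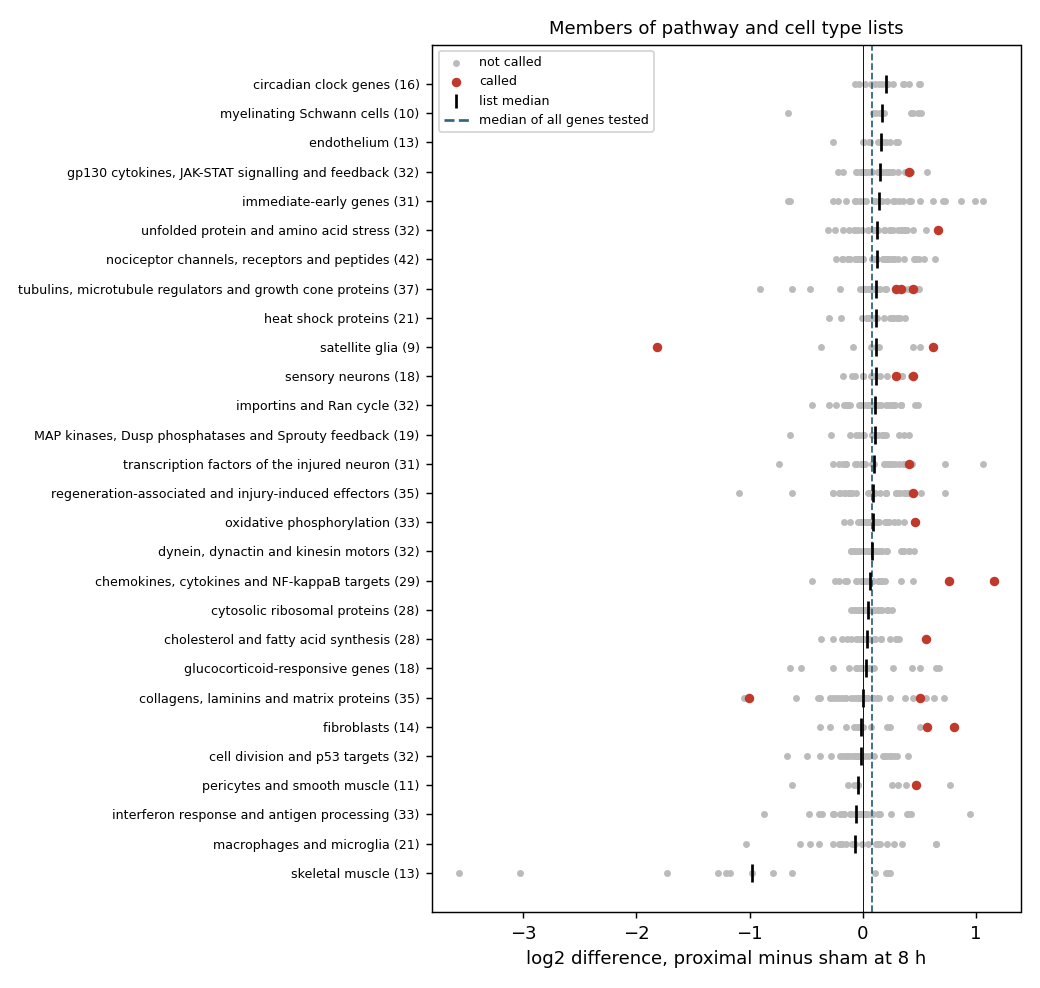
Log2 difference (proximal minus sham at 8 h) of the tested members of 20 pathway lists and of the marker lists with at least 9 tested members, with the number tested in brackets; red points were called, black ticks are list medians and the dashed line is the median of all genes, 0.08. Called members are few in each list, and the skeletal muscle list alone has a median near -1.

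Promoters were read for genes that rose and whose start region holds a site for an injury-related factor. The Ppp1r15a window (chr1:105139547-105139846, minus strand) and the Myd88 window (chr8:127956181-127956480, minus strand) come from RefSeq on build GRCr8 and hold 300 bases each, most of them before the start site. Letters searched were TTCNNNGAA, the STAT site, and TGANTCA, a loose form of the AP-1 site of JUN and FOS, on both strands. The AP-1 consensus has C or G as its middle base, where this search allowed any base. Capitals mark the matches. Ppp1r15a holds a match to the AP-1 letters with C in the middle. Myd88 holds a match to the loose AP-1 letters, followed by a STAT match. The middle base of that first Myd88 match is A, so it falls outside the AP-1 consensus.
Ppp1r15a promoter: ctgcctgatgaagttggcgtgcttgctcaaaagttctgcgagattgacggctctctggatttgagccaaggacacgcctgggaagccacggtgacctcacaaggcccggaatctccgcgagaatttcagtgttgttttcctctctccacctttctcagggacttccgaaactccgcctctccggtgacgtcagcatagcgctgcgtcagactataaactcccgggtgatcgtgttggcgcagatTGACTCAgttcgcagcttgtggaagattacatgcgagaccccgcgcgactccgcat
Myd88 promoter: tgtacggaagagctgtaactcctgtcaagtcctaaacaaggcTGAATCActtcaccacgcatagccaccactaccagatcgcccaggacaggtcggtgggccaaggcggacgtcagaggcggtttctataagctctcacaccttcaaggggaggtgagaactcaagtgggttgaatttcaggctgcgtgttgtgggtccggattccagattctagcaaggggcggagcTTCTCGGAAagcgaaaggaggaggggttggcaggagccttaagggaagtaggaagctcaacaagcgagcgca
Myd88, the adaptor of Toll-like and interleukin-1 receptors, was picked after its values were seen. It had 8.46, 8.53 and 8.59 log2 in proximal arrays and 7.800, 7.982 and 7.765 in sham arrays, without overlap (log2 0.68, SE 0.15, adjusted p = 0.00972; 0.0761 without sham c). Of the 221 called genes, 180 had a promoter in the table, 194 windows in all, of which 5.15% held the STAT letters and 7.22% the AP-1 letters. Over all 33469 windows the shares were 8.87% and 7.33%. A match is a description of these letters and not a measured site.

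Cell type markers were read beside these results. Sensory neuron markers were bright in all 6 arrays, with a mean over 18 genes of 11.81 to 11.91 log2 in proximal arrays and 11.63 to 11.82 in sham arrays. Of the 18, 2 rose, where 1.84% of all genes and 103 of the 2862 brightest did. They were Tubb3 and Avil, an actin-binding protein of sensory neurons (log2 0.29, adjusted p = 0.0225, and 0.126 without sham c). Satellite glia had 1 of 9 tested markers higher, Sox10, a glial transcription factor (log2 0.62, adjusted p = 0.0424; 0.359 without sham c), and 1 lower, Fabp7. After the other quantile normalization 0 markers of either list were called higher (adjusted p = 0.0998 for Tubb3, 0.104 for Avil and 0.273 for Sox10), and Fabp7 was still called lower. Averaged over the list their level overlapped, at 9.62 to 9.79 in proximal arrays and 9.65 to 9.85 in sham arrays. Macrophage and microglia markers had 0 of 21 called, with list levels of 7.41 to 7.56 in proximal arrays and 7.45 to 7.55 in sham arrays. Of these 21, 1 was called lower after the other quantile normalization. Myelinating Schwann cell markers had 0 of 10 called and list levels of 11.02 to 11.09 against 10.78 to 10.98.

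Fibroblast markers had 2 of 14 higher, where 1.84% of all genes were. They were Gsn, an actin-severing protein (log2 0.57, adjusted p = 0.0169, and 0.0566 without sham c), and Igfbp6, an IGF-binding protein (0.81, 0.0392, and 0.144 without sham c). The list median was -0.01, against 0.08 for all genes, and 7 of 14 differences were positive. List levels were 10.85 to 10.93 in proximal arrays and 10.65 to 10.86 in sham arrays. Mcam, a vessel wall adhesion molecule, was the called marker among 11 of pericytes and smooth muscle (log2 0.47, adjusted p = 0.037, and 0.144 without sham c). The median of that list was -0.04, and 5 of 11 differences were positive. After the other quantile normalization Gsn, Igfbp6 and Mcam were not called (adjusted p = 0.0949 for Gsn, 0.133 for Igfbp6 and 0.134 for Mcam). In the pericyte and smooth muscle list 1 other marker was then called higher and 1 lower. A second Igfbp6 probe set gave a difference of 0.90, with its arrays apart.

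Endothelial markers had 0 of 13 called (median 0.16), and the few tested markers of erythrocytes (4), lymphocytes (4), adipocytes (3), neutrophils (1) and central glia (1) gave 0 calls with the deposited values. Endothelial list levels were 7.57 to 7.61 log2 in proximal arrays and 7.46 to 7.47 in sham arrays. Those of pericytes and smooth muscle were 7.44 to 7.52 against 7.32 to 7.42, and those of erythrocytes 7.24 to 7.44 against 7.58 to 7.82. As in the Schwann cell list, these levels did not overlap between groups.

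Skeletal muscle genes stood lower in proximal arrays as a list, with 0 of 13 called. Their list level was 6.54 to 6.61 log2 in proximal arrays and 7.41 to 7.56 in sham arrays, with no overlap, and 8 of 13 tested members had all proximal arrays below all sham arrays, against 4.94% of all genes tested. The list was mixed: 4 of 13 differences were positive, and Myh1 (log2 0.23) and Ryr1 (0.24) had all proximal arrays above all sham arrays. Myl1, a myosin light chain of fast muscle, had 4.84, 4.79 and 5.03 against 8.13, 8.56 and 8.67, and Tnnc2, the fast troponin C, 5.26, 5.31 and 5.27 against 8.22, 8.21 and 8.49. Acta1, skeletal actin, had 7.20, 7.37 and 6.99 against 8.72, 8.96 and 9.06. The adjusted p was 0.205 for Myl1 and 0.307 for Tnnc2, with a wide spread in the fit of all groups (SE 1.43 log2 for Myl1). Mb, Myh2, Myh4, Myh7 and Tnnt3 had a mean over the 6 arrays at 8 h below 5.94 log2, the filter level that was applied to the mean of all 72 arrays; Tnnt3 passed that filter and was tested (log2 -1.20). Hbb, the haemoglobin beta chain carried by blood, had 10.61, 10.89 and 11.04 against 11.67, 11.67 and 12.20 (log2 -1.004, adjusted p = 0.0748), and was called lower after the other quantile normalization (log2 -1.05, adjusted p = 0.0327). The part of muscle or blood RNA in the genes called was not tested.

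Levels at other hours showed where the 8 h differences lay. Fabp7 stood at 9.93 ± 0.16 at 3 h, 8.08 ± 0.39 at 8 h and 10.76 ± 0.06 at 24 h in proximal arrays (SD, n = 3 each), and at 9.88 ± 0.13, 9.90 ± 0.22 and 10.37 ± 0.16 in sham arrays. The low level was therefore that of the proximal arrays at 8 h. Adamts9 was 8.10 ± 0.12 at 3 h and 7.13 ± 0.07 at 8 h in proximal arrays, against 7.95 ± 0.03 and 8.07 ± 0.02 in sham arrays, so the sham arrays kept the level of 3 h. At 1 h Adamts9 was 7.20 ± 0.07 in proximal arrays and 7.34 ± 0.32 in sham arrays (SD, n = 3 each). At 12 h Adamts9 was 7.37 in proximal arrays and 7.34 in sham arrays (n = 2 each). Among all hours, its sham mean was highest and its proximal mean lowest at 8 h.

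Other named genes were read at 3 and 8 h in the same way. Prodh was 8.61 ± 0.11 at 3 h and 9.44 ± 0.15 at 8 h in proximal arrays, its highest mean of the 8 hours, against 8.50 ± 0.08 and 8.41 ± 0.09 in sham arrays. Ccl2 was 8.70 ± 0.12, 9.89 ± 0.22 and 11.12 ± 0.10 at 3, 8 and 18 h in proximal arrays, against 8.80 ± 0.14, 8.73 ± 0.37 and 9.64 ± 0.34 in sham arrays. Pdlim4 was 7.97 ± 0.18 and 8.56 ± 0.22 at 3 and 8 h in proximal arrays, against 7.63 ± 0.57 and 7.28 ± 0.56 in sham arrays, so its means moved apart in both groups. Stat3 was 10.89 ± 0.20 and 10.80 ± 0.08 at 3 and 8 h in proximal arrays, against 10.53 ± 0.04 and 10.39 ± 0.06 in sham arrays. The Stat3 difference was 0.36 at 3 h, before its 0.41 at 8 h, and both groups were lower at 8 h than at 3 h.

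Among all genes called, low sham levels were common. Of the 211 genes called higher, 157 had their lowest sham mean of all 8 hours at 8 h (74.4%, against 37.6% of all genes tested), and 24 had their highest proximal mean then (11.4%, against 5.77%). Of the 10 genes called lower, 8 had their lowest proximal mean at 8 h (80%, against 17.1%), and 2 their highest sham mean. These genes were chosen by the 8 h values, which favours extremes at that hour.

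**Figure D4:**
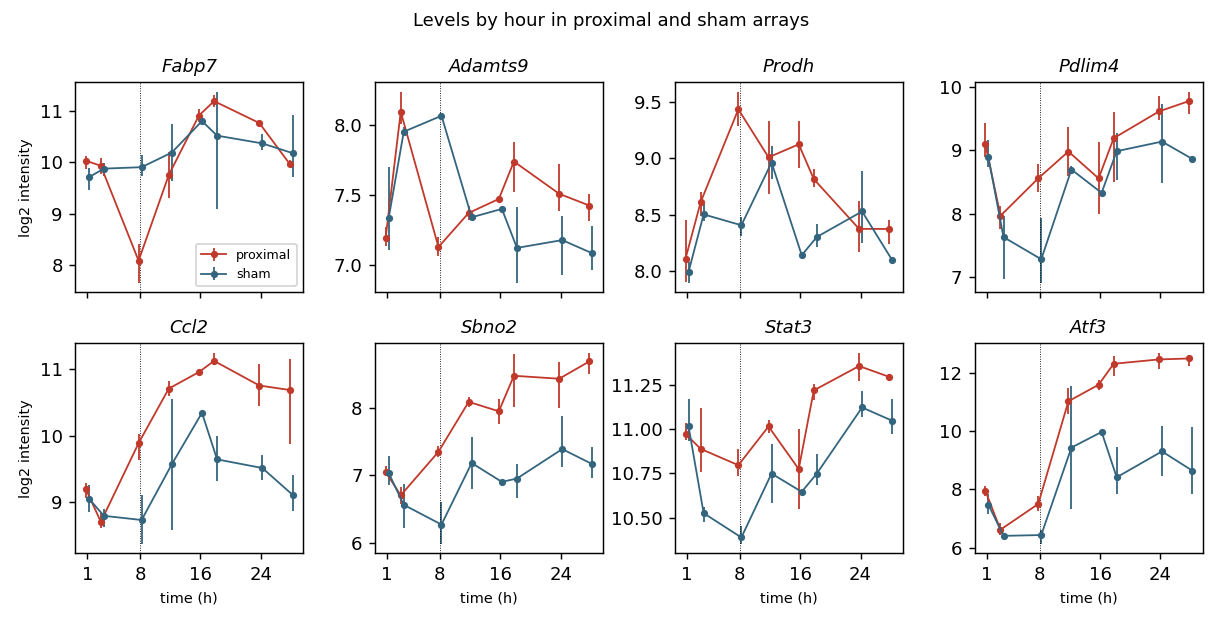
Mean log2 intensity by time after a proximal lesion or sham surgery for 8 named genes, with bars for the lowest and highest array (3 arrays a group, 2 at 12 h, and 2 proximal and 1 sham at 16 h); the dotted line marks 8 h. Fabp7 has its lowest proximal mean at 8 h, Pdlim4 and Stat3 have their lowest sham mean at 8 h, and Atf3 reaches 12.30 at 18 h in proximal arrays, against 7.50 at 8 h.

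The proximal minus sham difference at 8 h was also set against the differences at other hours, each with its own sham arrays. At 1 and 3 h 0 genes were called in limma (246 and 295 had an unadjusted p under 0.05). Counts of genes called higher and lower were 4 and 0 at 12 h, 3 and 2 at 16 h, 142 and 37 at 18 h, 115 and 30 at 24 h and 354 and 174 at 28 h. Of the 211 genes called higher at 8 h, 0, 1, 9, 5 and 15 were also called higher at 12, 16, 18, 24 and 28 h. Of the 10 called lower at 8 h, 0 were called lower at any other hour. The median log2 difference of the 211 was 0.06 at 1 h, 0.13 at 3 h, 0.55 at 8 h, 0.18 at 12 h, 0.16 at 16 h, -0.06 at 18 h, -0.07 at 24 h and -0.07 at 28 h. These genes were chosen by their 8 h difference, so a peak at that hour is fixed by the choice and nothing is read from it.

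Tests of the difference between hours gave 0 genes for 8 h against the mean of 1 and 3 h (645 with an unadjusted p under 0.05, and a lowest adjusted p of 0.0503). For 8 h against the mean of 18, 24 and 28 h, 814 genes were called (7.11%), 652 with a higher and 162 with a lower difference at 8 h (5.7% and 1.42% of the genes tested). Of the 211 genes called higher at 8 h, 167 were among the 652 and 8 of the 10 called lower were among the 162, but the 8 h values that chose them enter this test, so nothing is read from these shares. Ccl2 (log2 -0.28, adjusted p = 0.734), Sbno2 (-0.29, 0.582), Tnfrsf1a (0.08, 0.879), Stat3 (0.09, 0.772) and Ppp1r15a (0.08, 0.898) were among the called rises for which no difference between 8 h and the late hours was detected. For Atf3 the difference at 8 h was below that at 18 to 28 h (log2 -2.56, adjusted p = 0.00407), as it was for Sox11 (-2.13) and Gadd45a (-2.05).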

How the data were processed

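RNA of L4 and L5 ganglia was measured on 72 Affymetrix arrays, 6 of them compared here. The authors deposited a log2 intensity for each probe set, computed with RMA per the submitters' processing notes (its version is not given in the sources). Per the labels, RNA was extracted with an RNeasy kit and labelled with biotin. Of 31099 probe sets 57 controls were left out. Per the annotation of the platform, 20826 probe sets had 1 symbol, 436 several and 9780 none, and 20758 matched a RefSeq gene. Each of 14217 genes was read from its brightest probe set on average. Genes with a mean below the 25th percentile of named probe sets (5.94 log2) were left out, leaving 11448.

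Limma 3.58.1 in R 4.3.3 (data.table in version 1.17.8) fitted 24 group means over all 72 arrays, leaving 48 residual degrees of freedom, with a trend in eBayes, two-sided tests and Benjamini-Hochberg adjustment over all genes. A fold with a group mean below the filter level is a lower bound. With 3 arrays against 3, an exact permutation test could not go below p = 0.1, and none was run. The number of arrays limits the precision. On simulated arrays with the spread of these genes, the 8 h test recovered 29 of 100 changes of 0.5 log2 and 88 of 100 of 1 log2, with 6 false calls among 11448 genes. The calls on the deposited arrays depended on single arrays and on scaling, so these rates are not read as those of the deposited arrays.

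The genes named were the 12 largest called rises and 12 largest falls (10 were called), called members of the lists (at most 6 a list), and 18 injury genes regardless of their values; others named were chosen after their values were seen. The members, lists and rules were chosen with earlier results of these data known. Alternatives covered filters, normalization, array weights, blocks, probe set choice, the arrays fitted and leaving out each array. All 6 arrays at 8 h fell in the same of 4 technical sets found by clustering the arrays on dim probe sets, and 0 pairs of arrays were identical.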

Additional observations from a re-analysis of the deposited data

Results flagged for a closer look

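The differences listed here differed between hours in the limma test of the 8 h difference minus the mean difference at 18, 24 and 28 h (adjusted p under 0.05 over all genes). Values are that log2 difference of differences, positive where the proximal minus sham difference was greater at 8 h. The genes called at 8 h were chosen by values that enter this test.

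Among the largest rises, the difference at 8 h exceeded that at the late hours for Fzd2 (0.97), Prodh (0.82), Pfkl (1.26), Pnpla7 (0.89), Pnpla2 (0.86), Agt (1.05), Prr15 (0.82), Wnt6 (0.87) and Atp6v0a1 (0.96). Among the falls, the values were Fabp7 (-2.11), B3gnt5 (-1.18), Itgb3 (-1.04), Col14a1 (-0.98), Adamts9 (-1.37), Adam17 (-0.79), Gask1b (-0.65) and Gsap (-0.89). Fabp7 thus differed by -1.82 at 8 h, against 0.67, 0.40 and -0.21 at 18, 24 and 28 h, and Adamts9 by -0.94, against 0.62, 0.33 and 0.34.

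Called members of the lists with a greater difference at 8 h were the tubulin genes Tubb4b (0.41), Tubb3 (0.45) and Tubb5 (0.38), the glial factor Sox10 (0.62) and Uqcrc1 (0.57), Sparc (0.48), Gsn (0.49), Avil (0.42), Mcam (0.49) and Srebf1 (0.66). Injury genes whose rise was larger at the late hours were Atf3 (-2.56), Sox11 (-2.13), Gadd45a (-2.05), Gal (-1.25), Cebpd (-1.19) and Gfap (-1.69). The nociceptor channel genes Scn10a (0.46) and Trpv1 (0.58) differed by 0.22 and 0.18 at 8 h, and at 28 h by -0.41 and -0.54.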

How the results depend on the processing

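Numbers of genes called at 8 h are given as total, higher and lower, against 221, 211 and 10 as reported. They were 1454, 1302 and 152 with array weights, 524, 426 and 98 with only the 6 arrays at 8 h, 83, 77 and 6 with only proximal and sham arrays, 145 and 133 (total and higher) with every named probe set, 434, 400 and 34 without distal arrays whose letter is followed by o, and 965, 881 and 84 with the technical set as a fixed block. Another quantile normalization gave 68 lower and 155 higher, and cyclic loess, chosen after seeing the data, 137, 77 and 60. Leaving out an array gave 4 to 383, 3 to 373 and 1 to 10. With the array letter as a replicate block the counts were 693, 639 and 54. The labels do not say what the letter marks, and the fit as reported did not pair arrays by it. Deviations of same-letter arrays correlated at -0.04, -0.21 and -0.29, below the limit of 0.1 set for pairing. With 3 arrays a group, these correlations cannot show whether the letters pair the arrays. Against the first 3 hours 0 genes were called, but 13 after another quantile normalization, 79 with array weights, 8 with the replicate block, 2 without the o arrays, 17 with the set as block and 10 with loess. Against the late hours 814 were called, against 3160 with array weights, 1603 with the replicate block, 2063 with the set as block and 337 to 952 without each array. Causes were not tested. Of the 36 named genes called, 36 kept their direction under each alternative that tested them. They were chosen by their difference on these arrays, which favours the same sign. A dim probe set each of Prodh, Tubb3, Wnt6 and Cbx1 had the opposite sign, and the remaining other probe sets of called named genes kept it. The other quantile normalization kept the call of 23, loess of 21, the replicate block, array weights and set block of 36, and leaving out sham c, sham a and proximal a of 2, 4 and 10. The signal of dim genes limits what can be read: 4 called genes had a group mean below the filter level.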

Other observations

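Gene families were looked at after the values were seen, with all their tested members and no test of the family. Over all genes tested, 1.84% were called higher and 0.0874% lower, and of the 2862 brightest genes 103 were called higher. The vacuolar proton pump, which acidifies lysosomes and vesicles, has a membrane sector V0 and a catalytic sector V1. Of 7 tested V0 genes 3 rose at 8 h, namely Atp6v0a1, Atp6v0c and Atp6v0d1, and the family median was 0.25 (0.18 after the other quantile normalization). After that step 1 of the 7 was called, Atp6v0c (adjusted p = 0.00917), with adjusted p = 0.0541 for Atp6v0a1 and 0.213 for Atp6v0d1. Atp6v0c had 13.23, 13.11 and 13.03 log2 in proximal arrays and 12.65, 12.80 and 12.63 in sham arrays (log2 0.43, SE 0.07, adjusted p = 0.000545), with no overlap. Of 10 tested V1 genes 0 were called, with differences between -0.06 and 0.18 and a median of 0.05, or -0.01 after the other quantile normalization. The difference between the sectors was not tested.

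Among 15 tested glycolytic enzymes 3 rose, Pfkl and the aldolases Aldoa (log2 0.34, adjusted p = 0.0206) and Aldoc (0.40, 0.00725), and the median was 0.19 (0.09 after the other quantile normalization, where Aldoa was not called, adjusted p = 0.193). Of 6 PDZ-LIM genes 3 rose, Pdlim4, Pdlim1 (0.48, 0.0169) and Pdlim7 (0.44, 0.0457), with a median of 0.24. After the other quantile normalization Pdlim1 (adjusted p = 0.156) and Pdlim7 (0.184) were not called. Of 6 FXYD genes, small regulators of the sodium pump, 2 rose, Fxyd7 (0.61, 0.00567) and Fxyd1 (0.57, 0.0206), of which Fxyd1 was not called after that step (adjusted p = 0.225). Fxyd1 had 11.77, 11.76 and 11.81 in proximal arrays and 11.23, 11.19 and 11.20 in sham arrays, each group within 0.03 by SD. Among 23 genes of the ADAM and ADAMTS families 2 fell, Adam17 and Adamts9, 0 rose, and the median was -0.07 (-0.14 after the other quantile normalization).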
